A study of Mus musculus with 8 samples.

Results

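General neuron differentiation genes are genes that newborn neurons switch on whatever their subtype: subunits and binding proteins of microtubules, neurofilaments, adhesion proteins of the growth cone, RNA-binding proteins, zinc finger transcription factors and proteins of synaptic vesicles. The list holds 39 such genes, chosen by name and function, and 37 of them had a probe that could be matched and tested, of 14449 genes tested in all. Ina and Celf5 had no matched probe. All 70 matched probes of the 37 genes passed the filter on dim probes, and the brightest probe of each gene was well above background on all 8 arrays.

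The values come from 1-colour Agilent arrays of the medial ganglionic eminence (MGE), the ventral forebrain territory that gives rise to cortical interneurons and to neurons of the basal ganglia, at embryonic day 13.5. RNA of 4 WT and 4 Nkx2-1cKO samples was compared, to ask what changes in the MGE without NKX2-1, the homeodomain transcription factor that sets its identity. Per the labels, the WT genotype is Nkx2-1flox/+;Olig2tva-cre- and the mutant genotype is Nkx2-1flox/+;Olig2tva-cre+, both on the C57BL/6 strain. The label thus gives a heterozygous floxed allele for both groups, while the study's methods name a strain with both alleles floxed. Cre is expressed from the Olig2 locus, so recombination takes place in progenitors that use Olig2 and in their descendants, and the groups also differ in whether they carry the Cre allele. Nothing in the labels says whether a sample is 1 embryo, 1 litter or a pool, so the p-values measure the spread between these samples, which may be technical.

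Levels are log2 signals from which the array's own 75th percentile was subtracted, so a level of 0 is the signal at that percentile, and a difference is always Nkx2-1cKO minus WT on the log2 scale. The targeted gene was checked first. Nkx2-1 measured 1.87, 1.95, 1.82 and 1.85 in WT and -4.26, -4.58, -4.67 and -4.35 in Nkx2-1cKO, a difference of -6.34 (SE 0.11, limma adjusted p = 4.77e-09), which leaves 1.24% of the WT signal. The group names WT and Nkx2-1cKO and the targeted gene therefore point the same way in all 8 samples. A heterozygous floxed allele would leave an allele intact, so this low signal does not match the genotype label of the mutant. On each array 71.1% to 79.5% of the probes were well above background, no spot was saturated, and arrays of a group correlated at 0.9725 to 0.9928. Each of the 2 slides held 2 arrays of each group.

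As background, a neuron leaving the cell cycle in the ganglionic eminence first assembles the machinery that all neurons share. It stabilises a microtubule skeleton for migration and axon growth, puts neuron-specific RNA-binding proteins to work on splicing and mRNA stability, and begins to make vesicle proteins well before synapses form. Neurofilaments are the intermediate filaments of neurons; the light chain (NEFL), the medium chain (NEFM), the heavy chain (NEFH) and alpha-internexin (INA) assemble together, and the light and medium chains appear early in projection neurons with long axons. This shared programme runs beside the programme of regional identity, in which NKX2-1 and the LIM homeodomain factors LHX6 and LHX8 act in the MGE.

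Most of the shared neuronal programme was close to level between WT and Nkx2-1cKO. Of the 37 genes, 2 were higher in Nkx2-1cKO (Nefl and Nefm), 1 was lower (Elavl2) and 34 did not pass the threshold of an adjusted p of 0.05 in limma. Over all genes tested, 0.491% were called higher and 0.851% were called lower. The median difference over the 37 genes was 0.07, against 0.00 over all genes, and it changed sign to -0.04 with quantile normalization and with normexp background correction, where the medians of all genes were 0.01 and 0.09. The estimates were above 0 for 22 genes and below 0 for 15, and their median size without sign was 0.16, against 0.13 over all genes. Because the tissue was analysed in bulk, fewer neurons and less RNA per neuron cannot be told apart here.

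How narrowly the 34 genes were held can be read from their 95% intervals. On the brightest probe of each gene, all 34 intervals lay within a 2-fold change in either direction. Of all 37 genes, called or not, 30 had intervals within 1.5-fold on that probe. Intervals of dimmer probes reached beyond 2-fold for St18 (-1.15 to -0.57), Thy1 (-1.27 to 0.18) and Syt4 (-0.62 to 1.1). The median half-width was 0.21 on the log2 scale. The SE was 0.10 at the median of these genes and 0.13 at the median of all genes tested. Before adjustment, 10 of the 37 genes had p under 0.05, 4 higher and 6 lower, and 9.51% of all genes did.

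**Figure D1:**
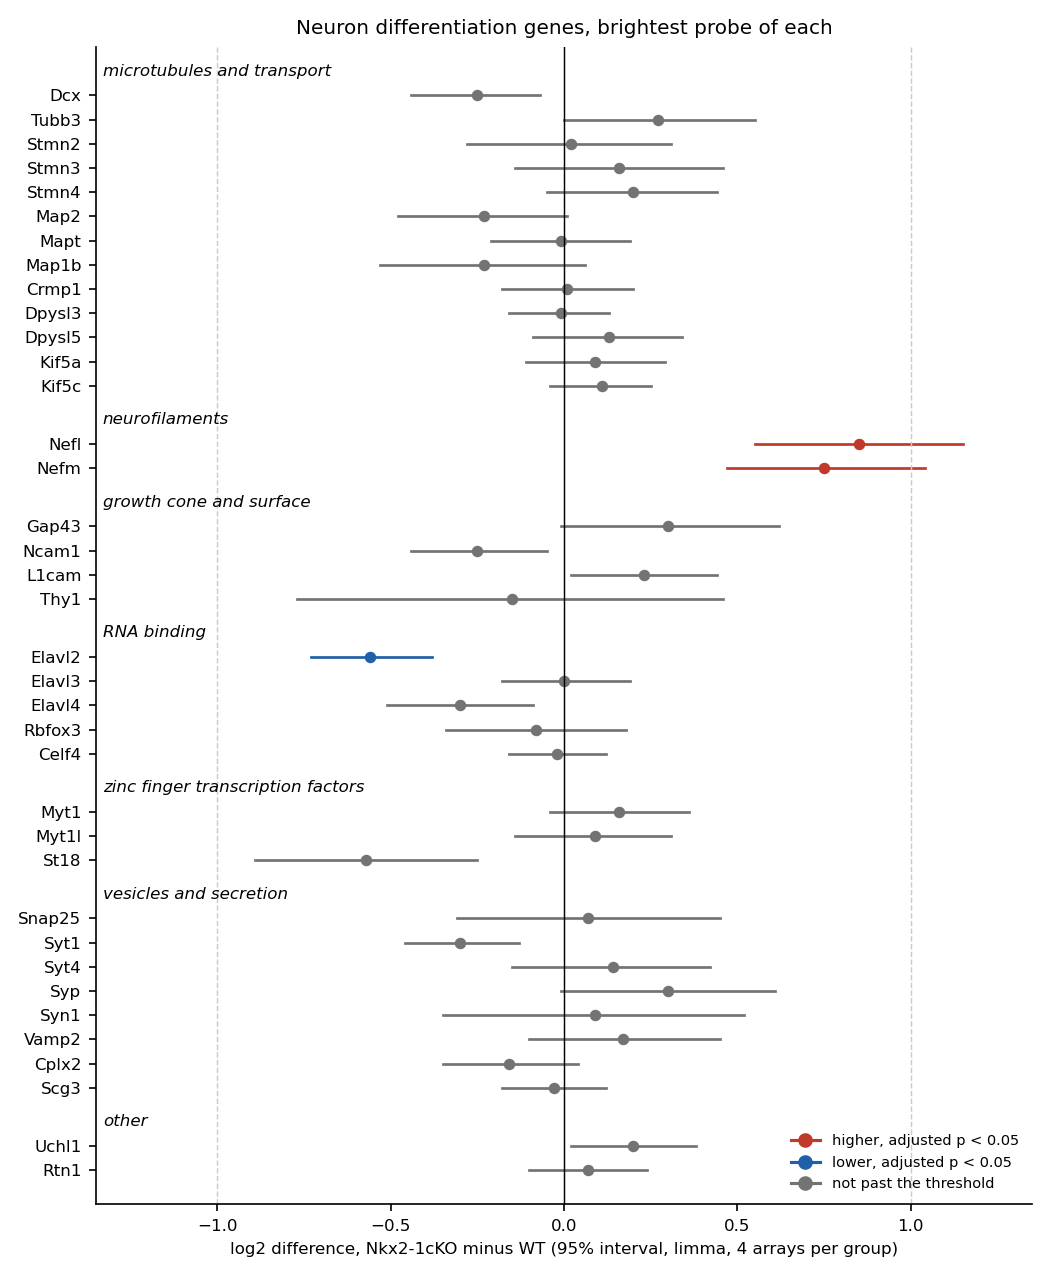
Log2 difference (Nkx2-1cKO minus WT, horizontal axis) of the brightest probe of each of 37 neuron differentiation genes, grouped by role; points are limma estimates from 4 arrays per group, bars are 95% intervals, and dashed lines mark a 2-fold change. Nefl (0.85) and Nefm (0.75) lie to the right and Elavl2 (-0.56) to the left past the threshold, St18 (-0.57) lies as far left without passing it, and the rest cluster around 0.

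Both neurofilament genes of the list that could be tested, Nefl and Nefm, were higher in Nkx2-1cKO. Nefl, the light chain on which the other neurofilament chains assemble, measured 2.29, 2.78, 2.33 and 2.52 in WT and 3.40, 3.06, 3.51 and 3.35 in Nkx2-1cKO. Every Nkx2-1cKO sample was above every WT sample, with means of 3.33 ± 0.19 and 2.48 ± 0.23 (SD, n = 4). The difference was 0.85 (SE 0.13, 95% interval 0.55 to 1.15), or 1.80-fold, with a limma adjusted p of 0.0146. On the first slide it was 0.90 and on the second 0.80.

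Nefm, the medium chain, measured 1.25, 1.5, 1.18 and 1.49 in WT and 2.38, 2.05, 2.16 and 1.84 in Nkx2-1cKO. Here too the groups did not overlap, the lowest Nkx2-1cKO sample standing above the highest WT sample. The difference was 0.75 (SE 0.13, 95% interval 0.47 to 1.04), or 1.69-fold, with a limma adjusted p of 0.023, and it was 0.73 and 0.77 on the slides. Nefm also differed between the slides themselves, by 0.30 (second minus first, adjusted p = 0.0305), as did 15.8% of all genes. With slide as a block in the fit, both genes were again called, with adjusted p of 0.00163 for Nefl and 0.00151 for Nefm, where 0.81% of all genes were called higher and 1.09% lower.

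Both neurofilament calls lay near the threshold and depended on single arrays and on the processing. Nefl lost its call without WT replicate 3 (0.80, adjusted p = 0.0567), without Nkx2-1cKO replicate 1 (0.83, adjusted p = 0.0629) and without Nkx2-1cKO replicate 4 (0.84, adjusted p = 0.0541). Nefm lost it without WT replicate 1 (0.72, adjusted p = 0.0688), without WT replicate 3 (0.69, adjusted p = 0.0823), and without Nkx2-1cKO replicate 1 (0.66, adjusted p = 0.0629), replicate 2 (0.77, adjusted p = 0.0576) or replicate 3 (0.74, adjusted p = 0.077). The size of the difference moved little in these fits, between 0.79 and 0.95 for Nefl and between 0.66 and 0.84 for Nefm. Both calls were also lost with centring on the median (Nefl 0.98, adjusted p = 0.0727; Nefm 0.88, adjusted p = 0.087) and with the replicate number as a block (adjusted p = 0.199 and 0.235), and that of Nefm without a variance trend (adjusted p = 0.0642). Over all settings tried the differences kept their direction, with ranges of 0.74 to 0.98 for Nefl and 0.66 to 0.88 for Nefm.

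The rest of the intermediate filament family was looked up after these values had been seen. Nefh, the heavy chain, measured -4.07, -3.83, -3.85 and -3.89 in WT and -3.38, -3.23, -3.43 and -3.31 in Nkx2-1cKO. Its groups did not overlap either, and the difference of 0.57 (SE 0.12) had an adjusted p of 0.0753, or 0.0499 with slide as a block. Vim (-0.04) and Nes (0.06), the filaments of neural progenitors, were close to 0. Prph, the peripheral neuron filament, differed by -0.89 and Gfap, the astrocyte filament, by -0.63, neither past the threshold, and WT replicate 1 was the highest array for both. Both genes lay near the lowest signal well above background (-7.15 to -5.64 on an array), with Nkx2-1cKO means of -6.05 and -6.49. Gfap was well above background on 2 of the 4 Nkx2-1cKO arrays.

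Markers of neurons from outside the forebrain or with long peripheral axons were examined beside the neurofilaments, again after their values had been seen. Of 7 such genes 4 were tested, and none passed in limma, with 2 lower and 0 higher at an unadjusted p under 0.05. All 4 estimates were below 0, from -1.57 for Slc18a3 to -0.32 for Pou4f1, a sensory neuron factor. Slc18a3 and Chat lay near the lowest signal well above background, which was -7.15 to -5.64 on an array. Their Nkx2-1cKO means were -6.46 and -6.62, well above background on 3 and 2 of the 4 arrays. The mean deviation of these 4 genes was 0.01 to 0.97 across WT samples and -0.94 to 0.02 across Nkx2-1cKO samples, so Nkx2-1cKO replicate 4 (0.02) and WT replicate 2 (0.01) met at the border of the groups. The cholinergic genes Chat, Slc18a3 and Slc5a7 on this list are also used by cholinergic neurons that the MGE makes.

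**Figure D2:**
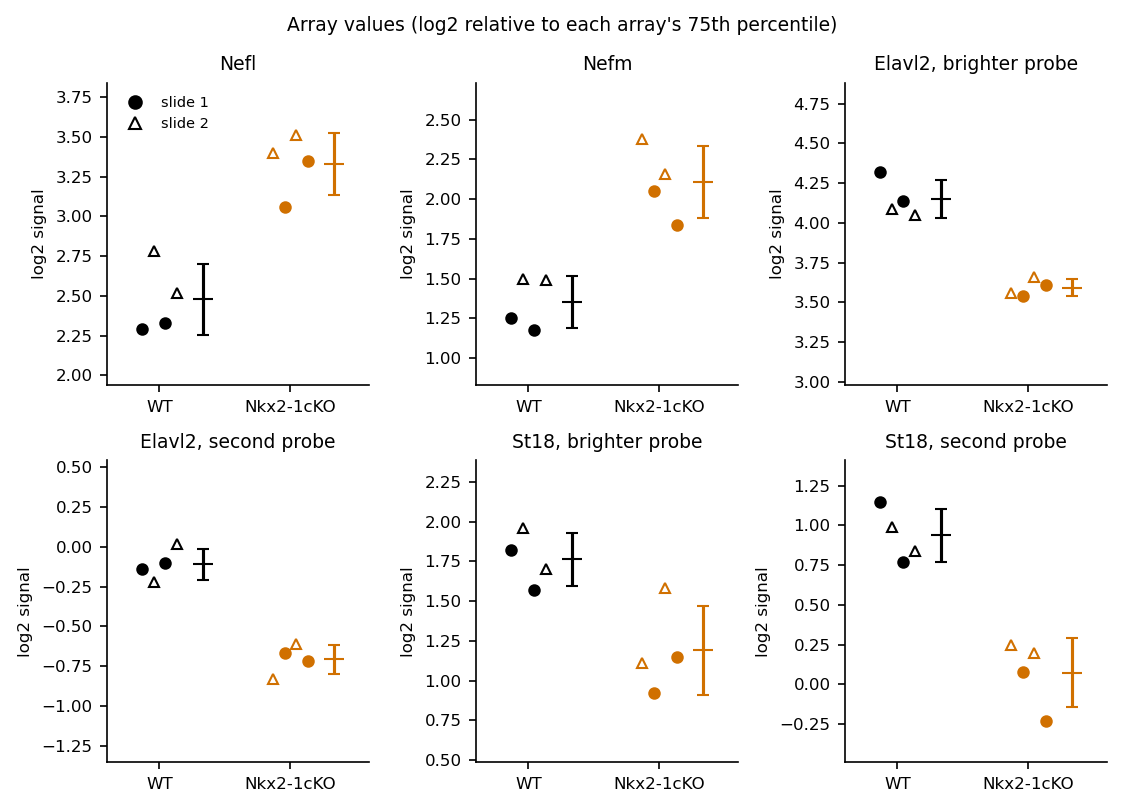
Log2 signal minus that of the array's 75th percentile (vertical axis, the same span of 1.9 in each panel) for Nefl, Nefm and both probes of Elavl2 and St18, in 4 WT and 4 Nkx2-1cKO samples; filled circles are slide 1, open triangles slide 2, and bars are the mean ± SD. The groups separate for every probe shown but the brighter St18 probe, where Nkx2-1cKO replicate 3 (1.58) reaches the WT range.

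Among the 5 RNA-binding genes tested, Elavl2 was lower, Elavl4 had p under 0.05 before adjustment only, and the other 3 had neither. Elavl2 encodes HuB, a neuronal protein that binds AU-rich stretches of mRNA and acts on their stability and splicing. Its brighter probe measured 4.32, 4.09, 4.14 and 4.05 in WT and 3.56, 3.54, 3.66 and 3.61 in Nkx2-1cKO. The groups did not overlap, and the Nkx2-1cKO samples lay closer to each other (SD 0.06) than the WT samples did (SD 0.12). The difference was -0.56 (SE 0.08, 95% interval -0.73 to -0.38), which left 68.0% of the WT signal, with a limma adjusted p of 0.00813.

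A second Elavl2 probe, which was dimmer, measured -0.14, -0.22, -0.10 and 0.02 in WT and -0.83, -0.67, -0.61 and -0.72 in Nkx2-1cKO. It gave a difference of -0.60 (SE 0.09, adjusted p = 0.0114), so both probes fell by a similar amount and without overlap of the groups. The brighter probe was called whichever array was left out, with differences of -0.59 to -0.50. The second probe was called in 7 of those 8 fits, the exception being the fit without WT replicate 3 (-0.60, adjusted p = 0.0503). Centring on the median ended the call of both probes (-0.43, adjusted p = 0.21, and -0.47, adjusted p = 0.281), as did the replicate number as a block (adjusted p = 0.142 and 0.17), and normexp ended that of the second (-0.53, adjusted p = 0.181).

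Elavl3 and Elavl4 encode HuC and HuD, the other neuronal members of the family. Elavl4 measured 4.61, 4.46, 4.39 and 4.20 in WT and 4.18, 4.04, 4.18 and 4.07 in Nkx2-1cKO. Every Nkx2-1cKO value lay under every WT value, though by a small margin, and the difference of -0.30 (SE 0.09) had an adjusted p of 0.314. Its second probe gave -0.28 (adjusted p = 0.223), also without overlap. Elavl3 measured 4.54, 4.36, 4.39 and 4.20 in WT and 4.33, 4.37, 4.42 and 4.39 in Nkx2-1cKO, and its difference of 0.00 had an interval of -0.18 to 0.19. Whether the Elavl genes differ from one another in their response was not tested. Elavl1, the family member found in all cell types and looked up after these values were seen, differed by 0.10 (adjusted p = 0.775).

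The remaining RNA-binding genes were level. Celf4, a regulator of neuronal mRNA translation and splicing, measured 4.03 to 4.08 in WT and 3.97 to 4.09 in Nkx2-1cKO, a difference of -0.02 with an interval of -0.16 to 0.12, among the narrowest of the 37. Rbfox3, which encodes the neuronal nuclear antigen NeuN, differed by -0.08 (interval -0.34 to 0.18) on its brighter probe and by 0.05 on the other. The other Celf genes measured, which lie outside the list of 39, differed by -0.14 (Celf3), -0.13 (Celf2), 0.05 (Celf1) and 0.14 (Celf6), none past the threshold.

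St18, Myt1 and Myt1l encode the MYT family of zinc finger transcription factors, of which MYT1L is known to repress non-neuronal genes in neurons. The brighter probe of St18 measured 1.82, 1.96, 1.57 and 1.70 in WT and 1.11, 0.92, 1.58 and 1.15 in Nkx2-1cKO. Nkx2-1cKO replicate 3 lay within the WT range while the other 3 were below it, and the difference of -0.57 (SE 0.14) had an adjusted p of 0.161. Without that array the difference was -0.70 and passed (adjusted p = 0.0337). The second probe of St18 measured 1.15, 0.99, 0.77 and 0.84 in WT and 0.25, 0.08, 0.20 and -0.23 in Nkx2-1cKO, where no samples overlapped. Its difference of -0.86 (SE 0.13) left 55.1% of the WT signal, with an adjusted p of 0.0112, and it was called in all 8 fits that left out an array (-0.92 to -0.76). That call was lost with centring on the median (-0.73, adjusted p = 0.0866) and with the replicate number as a block (adjusted p = 0.0805). The mean of both probes also passed, at -0.72 (adjusted p = 0.0202). St18 is thus called or not depending on which probe stands for it.

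The other MYT genes did not follow St18 in their estimates, and the difference between them was not tested. Myt1 measured 2.62 to 2.87 in WT and 2.80 to 3.1 in Nkx2-1cKO, a difference of 0.16 (adjusted p = 0.637). Myt1l, which can drive fibroblasts towards a neuronal fate together with other factors, differed by 0.09 on its brightest probe, by -0.24 on the next and by 0.01 on the dimmest, and none passed.

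**Figure D3:**
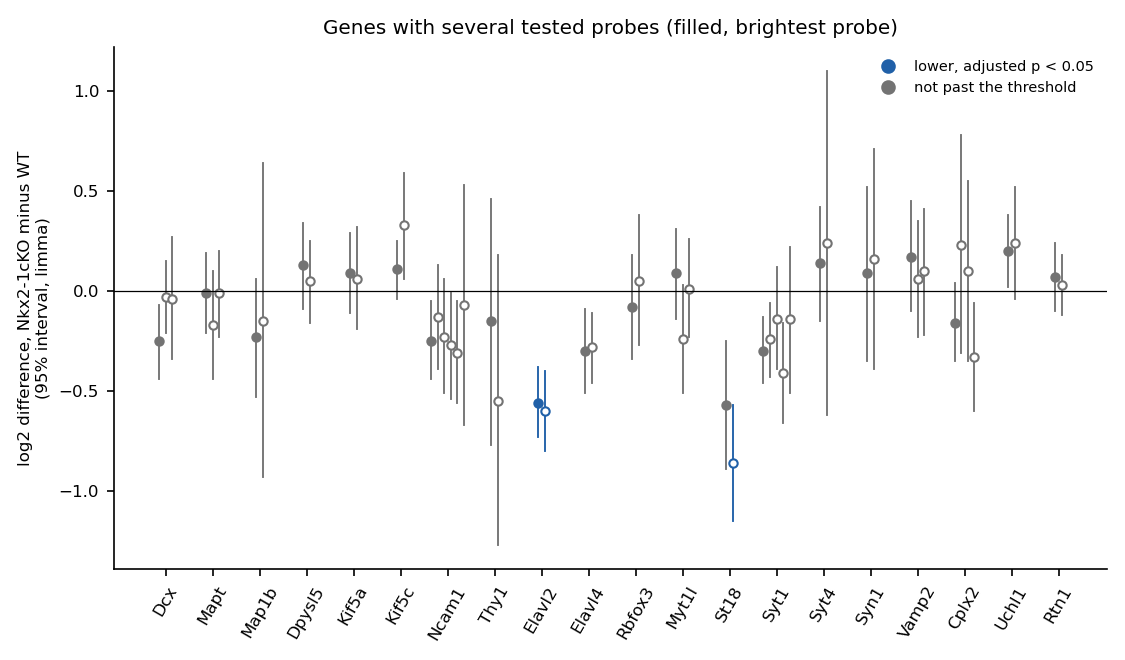
Log2 difference (Nkx2-1cKO minus WT, vertical axis) of every tested probe of the 20 genes that have several; filled points are the brightest probe of a gene, bars are 95% intervals from limma with 4 arrays per group. Both Elavl2 probes (-0.56 and -0.60) and the second St18 probe (-0.86) are past the threshold, and the probes of most other genes cover 0.

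Having several probes gives a second look at 20 of the 37 genes. For 17 of them the probes had differences of the same sign, and for 3 (Rbfox3, Myt1l and Cplx2) they did not. The largest spread between probes of a gene was 0.56 on the log2 scale, for Cplx2, whose dimmer probes gave 0.23, 0.10 and -0.33 beside -0.16. The probes not described elsewhere gave -0.17 and -0.01 for Mapt, -0.15 for Map1b, 0.05 for Dpysl5, 0.06 for Kif5a, -0.55 for Thy1, 0.24 for Syt4, 0.16 for Syn1, 0.06 and 0.10 for Vamp2, 0.24 for Uchl1 and 0.03 for Rtn1, none past the threshold. Probes of a gene share the sample and may read different parts of its transcripts, so they are not replicates of the comparison.

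Of the 13 genes for microtubules and transport, none passed in limma, and 1 (Dcx) had p under 0.05 before adjustment. Their median difference was 0.02 and they ranged from -0.25 to 0.27. Dcx, which encodes the doublecortin of migrating neurons, measured 5.27, 5.32, 5.13 and 5.20 in WT and 5.02, 4.98, 5.11 and 4.81 in Nkx2-1cKO. The groups did not overlap on this probe, at -0.25 (SE 0.08, adjusted p = 0.354), while 2 dimmer Dcx probes gave -0.03 and -0.04 with overlapping samples.

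Tubb3, the neuronal beta-tubulin used as a marker of newborn neurons, measured 5.21, 5.54, 5.38 and 5.64 in WT and 5.60, 5.50, 5.98 and 5.78 in Nkx2-1cKO. The samples overlapped, and the difference of 0.27 had an interval of 0.00 to 0.55 (adjusted p = 0.586). Mapt, which encodes the axonal protein tau, measured 5.45, 5.56, 5.50 and 5.19 against 5.45, 5.29, 5.49 and 5.43, a difference of -0.01 with an interval of -0.21 to 0.19. Map2, the dendritic counterpart, differed by -0.23 (adjusted p = 0.595).

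Map1b, a microtubule-associated protein of growing axons, also had an estimate of -0.23 (adjusted p = 0.639), and that estimate leaned on WT replicate 1. This array measured 4.74 where the other WT arrays measured 4.16 to 4.22, and without it the difference was -0.09. The stathmins, which bind free tubulin, differed by 0.02 (Stmn2), 0.16 (Stmn3) and 0.20 (Stmn4), and the differences of Stmn3 and Stmn4 were 0.02 and 0.11 without Nkx2-1cKO replicate 3. The collapsin response mediators, which link guidance signals to the cytoskeleton, differed by 0.01 (Crmp1), -0.01 (Dpysl3) and 0.13 (Dpysl5). The kinesin heavy chains of axonal transport differed by 0.09 (Kif5a) and 0.11 (Kif5c). On a second, dimmer Kif5c probe every Nkx2-1cKO sample was above every WT sample, at 0.33 (adjusted p = 0.437).

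At the growth cone and cell surface none of 4 genes passed in limma, and at an unadjusted p under 0.05 there was 1 higher and 1 lower gene. Gap43, a membrane protein of growing axons, measured 1.40, 1.07, 1.45 and 0.92 in WT and 1.39, 1.72, 1.33 and 1.61 in Nkx2-1cKO. Its samples overlapped in the pooled data. Among the genes of the list past the threshold for slide, Gap43 had the largest slide difference (-0.37, second minus first, limma adjusted p = 0.00938). Within slides its difference between the groups was 0.24 and 0.37. The pooled value was 0.30 (adjusted p = 0.595, or 0.0796 with slide as a block).

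The adhesion molecules of this group had estimates of opposite sign, and both Ncam1 and L1cam had p under 0.05 before adjustment only. Ncam1 measured 4.89 to 5.12 in WT and 4.62 to 4.87 in Nkx2-1cKO, a difference of -0.25 (adjusted p = 0.42), and all 6 of its probes had negative estimates, from -0.31 to -0.07. L1cam, an axonal adhesion molecule, measured 0.09 to 0.39 in WT and 0.41 to 0.58 in Nkx2-1cKO, a difference of 0.23 (adjusted p = 0.535). Thy1, a surface protein of mature projection neurons, had the widest interval of the 37 genes (-0.77 to 0.46) around -0.15.

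Of the 8 genes for vesicles and secretion none passed in limma, 1 (Syt1) had p under 0.05 before adjustment, and the median difference was 0.08 with a range of -0.30 to 0.30. Syt1, the calcium sensor for transmitter release, measured 3.33, 3.50, 3.36 and 3.36 in WT and 3.04, 3.11, 3.21 and 3.01 in Nkx2-1cKO. The groups did not overlap, and the difference was -0.30 (SE 0.08, adjusted p = 0.163, or 0.0699 with slide as a block). All 5 Syt1 probes had negative estimates, from -0.41 to -0.14, and 3 of them did so without overlap.

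The other vesicle genes gave estimates on both sides of 0. Syp, the vesicle membrane protein synaptophysin, differed by 0.30 (adjusted p = 0.595) and Vamp2, the vesicle SNARE, by 0.17 (adjusted p = 0.67). Without Nkx2-1cKO replicate 3 these were 0.19 and 0.05, and Syp was also 0.19 without WT replicate 1. Snap25, the plasma membrane SNARE, differed by 0.07 (interval -0.31 to 0.45) and Syt4, a synaptotagmin that does not act as a fast calcium sensor, by 0.14. Syn1, which tethers vesicles, differed by 0.09, with WT samples from 0.67 to 1.66 and Nkx2-1cKO samples from 1.27 to 1.43. Cplx2, a clamp on vesicle fusion, differed by -0.16 and Scg3, a granin of dense-core vesicles, by -0.03.

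The last pair of genes, the neuronal ubiquitin hydrolase Uchl1 and the reticulon Rtn1, differed by 0.20 (interval 0.02 to 0.38, adjusted p = 0.532) and 0.07. Uchl1 passed before adjustment only. Over all the genes, 3 of the 37 (Nefl, Nefm and L1cam) had all Nkx2-1cKO samples above all WT samples on their brightest probe, where 2.91% of all genes did. Another 5 (Elavl2, Elavl4, Dcx, Ncam1 and Syt1) lay entirely under WT, where 4.03% of all genes did.

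The level of the list as a whole was also followed sample by sample. The mean deviation of the 37 genes from their own averages was -0.04, 0.03, 0.01 and -0.07 in WT and -0.01, 0.00, 0.11 and -0.04 in Nkx2-1cKO. The groups overlapped, although the highest sample was Nkx2-1cKO replicate 3. For the RNA-binding genes the WT samples ran from 0.04 to 0.16 and the Nkx2-1cKO samples from -0.16 to -0.01, without overlap. This role includes Elavl2 (-0.56) and Elavl4 (-0.30), while Rbfox3, Celf4 and Elavl3 differed by -0.08, -0.02 and 0.00. The neurofilaments also separated (-0.56 to -0.18 against 0.24 to 0.57). That role holds only Nefl and Nefm, so its separation restates theirs. The other roles overlapped.

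A longer list of other neuronal genes gave no call. Of 52 tested, which include the tubulins Tubb2a and Tuba1a and the syntaxin Stx1a, none passed in limma, 2 were higher and 4 lower at an unadjusted p under 0.05, and the median difference was 0.03 (range -0.75 to 0.30). The low end, Rab3a, rested on Nkx2-1cKO replicate 3 (1.87, where the other Nkx2-1cKO samples measured 4.97 to 4.99). Next lowest were Dnm3 (-0.67) and Chl1 (-0.59), and Basp1 (0.30) was highest. Of 23 regulators of neuronal commitment, 1 passed. It was Cbfa2t3, a co-repressor that works with proneural factors, which measured lower by a difference of -0.68 (SE 0.10, adjusted p = 0.0112) without overlap of the groups. At an unadjusted p under 0.05 in limma 3 of the 23 genes were higher and 2 lower, Cbfa2t3 included, and their median was 0.00. None of 21 progenitor genes passed, with 2 lower at an unadjusted p under 0.05, and their median was 0.06.

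**Figure D4:**
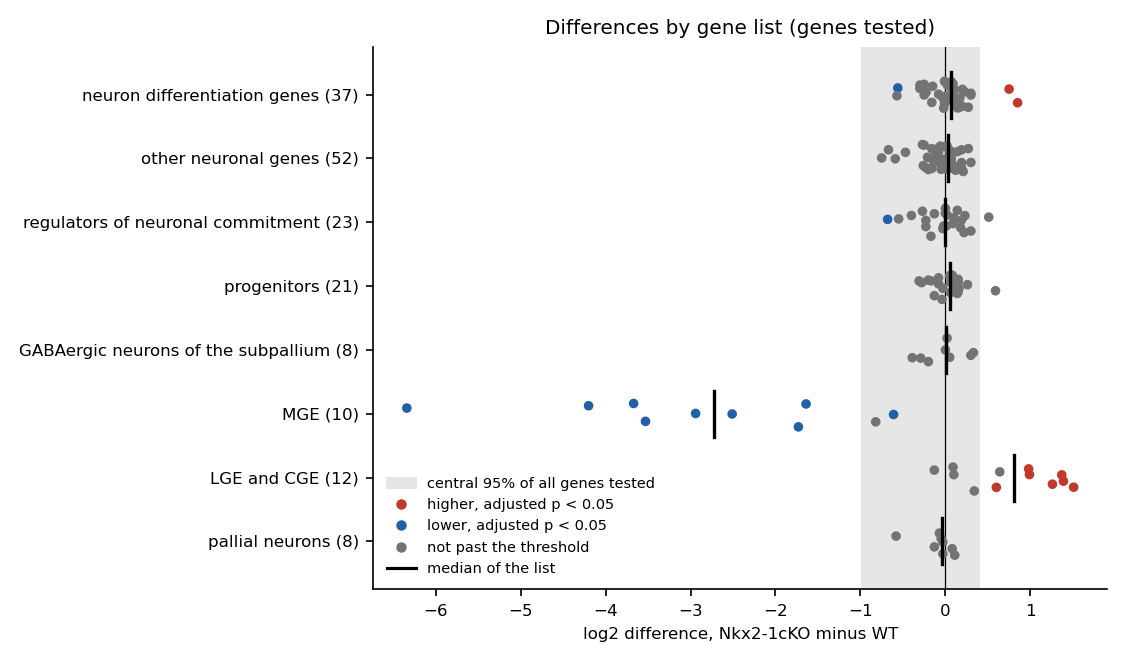
Log2 difference (Nkx2-1cKO minus WT, horizontal axis) of each tested gene of the neuron differentiation list, of further neuronal and progenitor lists and of regional marker lists; black lines are list medians, the number of genes tested is in parentheses, and the grey band holds the central 95% of all genes tested (-0.99 to 0.39). The neuronal and progenitor lists sit around 0, the MGE list lies to the left (median -2.73) and the LGE and CGE list to the right (median 0.81).

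Markers of the cell types the dissection could hold stand beside these values as measured. Of 10 MGE markers 9 were lower, with a median of -2.73, among them Lhx6 (-4.20) and Lhx8 (-3.67), and the list separated the groups in every sample (1.38 to 1.41 in WT, -1.45 to -1.37 in Nkx2-1cKO, as mean deviations). The count, median and deviations of the MGE list include the targeted gene Nkx2-1 itself (-6.34). Of 12 markers of the lateral and caudal ganglionic eminences (LGE and CGE), 7 were higher, with a median of 0.81, among them Rarb (1.51), Zfp503 (1.39) and Ebf1 (1.37). The rest of this list did not pass: Foxp1 (0.64), Sp8 (0.34), Nr2f1 (0.10), Ikzf1 (0.09) and Nr2f2 (-0.13). Their mean deviations were -0.56 to -0.22 in WT samples and 0.15 to 0.58 in Nkx2-1cKO samples. The list was thus higher in Nkx2-1cKO, as Nefl and Nefm were. In Nkx2-1cKO replicates 1 to 4 the LGE and CGE list stood at 0.26, 0.53, 0.15 and 0.58. The neurofilaments stood at 0.57, 0.24, 0.51 and 0.28 in the same samples. Replicates 1 and 3 were on slide 2 and replicates 2 and 4 on slide 1. The order of samples within the group therefore cannot be told apart from slide. The part of LGE and CGE cells in the neurofilament difference was not tested.

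GABAergic genes of the subpallium, shared by MGE and LGE, gave no call among 8 (median 0.01, 2 higher and 2 lower at an unadjusted p under 0.05), with Dlx1 at -0.39 (adjusted p = 0.0783, or 0.0222 with slide as a block). None of 8 pallial neuron markers passed, and none had p under 0.05 before adjustment (median -0.04). The erythroid, endothelial and microglial lists had medians of 0.12, 0.00 and 0.03 with no gene past the threshold or under an unadjusted p of 0.05. Mesenchymal markers varied from sample to sample, from -0.80 to 2.33 in WT with WT replicate 4 highest, and from -1.01 to 0.43 in Nkx2-1cKO, with 1 of 7 genes lower at an unadjusted p under 0.05 and none past the threshold. Leaving out WT replicate 4 left the calls of Nefl (0.86, adjusted p = 0.0493), Nefm (0.80, adjusted p = 0.0493) and Elavl2 (-0.59, adjusted p = 0.0222) in place. All 3 tested markers of oligodendrocyte precursors were lower, with a median of -1.76.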

How the data were processed

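The files the authors deposited come from Agilent's Feature Extraction, 1 for each of 8 arrays (version 10.7.3.1 per the file headers, 10.1 per the submitters' processing notes). Per the file headers, the authors' intensity of each spot was background-subtracted and detrended within its array and not scaled between arrays; the raw median intensity and local background of the spot stand beside it. Control and outlier-flagged spots were left out here, intensities were divided by their array's 75th percentile, log2 was taken and replicate spots were averaged. Of 41174 probes, 31283 were tested, for which 4 arrays or more of the 8 had to be well above background, and 53 values were missing. Accessions matched 24844 probes to 17178 symbols in a RefSeq gene table of GRCm38.p6, used for names only. Fits used limma 3.58.1 (lmFit, then eBayes with trend = TRUE) in R 4.3.3, with Benjamini-Hochberg adjustment over all tested probes and a threshold of 0.05. A gene is represented by its probe with the highest mean signal. Tested on simulated data for this comparison (31283 probes), the fit recovered 55.5% of 200 probes given a log2 change of 1, with 10 false calls among 121. No depth exists for arrays, and their number limits the precision.

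Every gene of the list is named with its probes, as is Nkx2-1. From other lists the text names genes past the threshold, at most 3 in each direction. Genes outside this rule were chosen after their values were seen. They are Tubb2a, Tuba1a, Stx1a, Rab3a, Dnm3, Chl1, Basp1, Foxp1, Sp8, Nr2f1, Ikzf1, Nr2f2, Pou4f1, Chat, Slc18a3, Slc5a7 and Dlx1. The intermediate filament genes and the Elavl and Celf relatives were chosen in the same way. The genes under each role and in each list, and the 39 themselves, were chosen with earlier results of these data known (3 lists, of intermediate filaments, of Elavl and Celf relatives and of peripheral and motor neurons, after their values were seen here), so lists are described by counts and medians without a test. Alternatives were 3 other scalings or corrections (quantile normalization, centring on the median, normexp with an offset of 50), 2 other filters, a block for slide or for replicate number, array weights, a fit with no variance trend, averaging all probes of a gene, and dropping 1 array at a time.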

Additional observations from a re-analysis of the deposited data

Results flagged for a closer look

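In 2 of 76 groups of 4 samples, over the 37 genes and Nkx2-1, an array lay far from the other 3 by Dixon's criterion, which chance alone meets in about 1 group of 20, or 3.8 here. Map1b measured 4.74 in WT replicate 1, and the remaining WT samples 4.16 to 4.22. Stmn4 measured 6.18 in WT replicate 2, and the remaining WT samples 5.95 to 5.99. Neither gene passed the threshold with all arrays or with any array left out.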

How the results depend on the processing

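Under the 18 alternatives Nefl was called in 13, Nefm in 10 and Elavl2 in 16, each with its direction kept in all 18. Of the 37 genes, none was called when arrays were centred on the median (0 higher, 0 lower), a scaling that moved the median of all genes to 0.13 and that of the list to 0.19, still 0.07 above it. The other counts that moved were 1 higher without a variance trend (Nefl), and 2 lower with normexp or with the mean of probes (Elavl2 and St18). Leaving out an array gave 0 to 2 higher and 1 to 2 lower; the 0 came without WT replicate 3 and without Nkx2-1cKO replicate 1, and the second lower gene was St18 without Nkx2-1cKO replicate 3. Without WT replicate 1, or Nkx2-1cKO replicate 2 or 3, Nefl alone was higher, and without Nkx2-1cKO replicate 4 Nefm alone. The list's median was -0.04 with quantile normalization and with normexp, which is -0.05 and -0.13 relative to all genes, 0.02 with the mean of probes, and 0.00 to 0.07 with an array left out, beside an SD between arrays of 0.04. The cause of these changes was not tested.

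With the replicate number as a block, the counts were 0 higher and 0 lower, and 6 genes of all tested were higher and 46 lower, against 71 and 123. The deviations of samples with the same number correlated at -0.481 to -0.194 over the 4 pairs, and no sample was closest to its own number. Samples with the same number always lay on different slides, and slide was not removed from these deviations. The correlations therefore cannot tell whether a shared number marks a pairing. Fewer residual degrees of freedom remain in that fit by its construction, and differences between the slides stay in its residuals.

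Only genes that were never called changed sign. With quantile normalization these were Stmn2 (-0.04), Elavl3 (-0.07), Crmp1 (-0.10), Rtn1 (-0.05) and Kif5a (0.00). With centring they were Mapt (0.12), Rbfox3 (0.05), Celf4 (0.11), Dpysl3 (0.12) and Scg3 (0.10). With normexp they were Stmn2 (-0.06), Stmn3 (-0.04), Elavl3 (-0.09), Snap25 (-0.03), Vamp2 (-0.03), Crmp1 (-0.08), Rtn1 (-0.06), Kif5a (-0.03), Kif5c (-0.01) and Thy1 (0.27). Array weights gave Stmn2 -0.02 and Snap25 0.00, and the mean of probes gave Myt1l -0.05. Leaving out an array gave ranges across 0 for Stmn2 (-0.06 to 0.10), Snap25 (-0.02 to 0.22), Dpysl3 (-0.03 to 0.01), Mapt (-0.09 to 0.04), Crmp1 (-0.02 to 0.06), Thy1 (-0.39 to 0.03), Elavl3 (-0.05 to 0.06), Syn1 (-0.12 to 0.21) and Scg3 (-0.05 to 0.00). Thy1 measured -2.95 to -1.70 over the 8 arrays, where the lowest signal well above background was -7.15 to -5.64 on an array.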
